A study of Homo sapiens with 6 samples.

Results

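Lysosomal hydrolases are the acid enzymes that take apart glycans, sulfated chains, lipids and proteins inside lysosomes. A list of 30 of their genes, without the cathepsins, was examined in human cells with lowered OCRL, a phosphoinositide phosphatase of endosomes and lysosomes. This list and the further gene lists below were chosen by name, with earlier results of these data known. A gene counted as measured if at least 1 probe set carried its symbol alone, and where several did, the brightest on average over the 6 arrays stood for the gene. This gave 28 of the 30 genes, out of 11963 genes on the array. GLB1, whose 1 probe set here carried several gene symbols, and AGA were not analysed here. GM2A, PSAP and NPC2 are not hydrolases themselves. The first is a cofactor, the second the precursor of cofactors and the third a sterol carrier, and they are kept under the label because they work beside the lipid enzymes.

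The cells were HK2, an immortalised human cell line from the kidney proximal tubule, grown with insulin, transferrin and selenium. The OCRL siRNA group and the control group, which received a non-targeting siRNA, were both transfected with Dharmafect 4 at 30% confluence and kept for 96 h. Each held 3 arrays, 1 from each of 3 independent experiments, and no untransfected cells were examined here. The labels do not say that a replicate number marks 1 experiment, so the main fit did not pair the arrays. OCRL itself was at 7.52, 7.49 and 7.40 (log2 value) in OCRL siRNA cells and at 9.49, 9.48 and 9.51 in control cells, so its mRNA fell to 24.6% of the control level (log2 difference -2.02, SE 0.048, adjusted p = 1.24e-05). Its second probe set was at 49.7% of control. For both probe sets p was 0.10 by an exact permutation test (two-sided), the smallest that 3 arrays against 3 allow.

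Most of these enzymes are made in the endoplasmic reticulum, tagged in the Golgi with mannose phosphate, and carried to endosomes by receptors that then return. Each enzyme removes 1 kind of bond, so inherited loss of a single one leaves its substrate stored in the lysosome. In kidney tubule cells they digest the filtered protein and lipid that endocytosis brings in. The values below are log2 probe set intensities normalised by the authors, each difference is the OCRL siRNA mean minus the control mean on that scale, and a gene is called when its adjusted p is under 0.05 by limma.

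More of the hydrolase genes rose than fell in OCRL siRNA cells, and every change was small. Of the 28 measured, 10 rose, 2 fell and 16 were not called. Over all genes, 15.5% rose and 10.5% fell. The risers were GALNS, TPP1, GM2A, PPT1, NEU1, MANBA, GLA, SMPD1, SGSH and PSAP, and the fallers were IDS and LIPA. Called changes ran from 1.14-fold (PSAP, higher) to 1.45-fold (IDS, lower), so none reached 1.5-fold. Few genes did so anywhere: with that minimum, 300 of all 11963 genes were called higher and 202 lower. The median difference was 0.09 over the 28 genes and 0.0005 over all genes, and 21 of the 28 differences were above 0. Values of the groups did not overlap in 19 of the 28 genes, where 44.9% of all genes had no overlap.

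The number of risers depended on the scaling and on single arrays. With the median of each array set equal, 6 rose and 2 fell, while over all genes 1437 rose and 1770 fell in place of 1854 and 1251. The median of the hydrolases was then 0.05, and that of all genes -0.05. With quantile normalisation 9 rose and 2 fell, while over all genes 1729 rose and 1441 fell. The count of risers was 6 without OCRL siRNA replicate 1, 6 without replicate 2, 5 without replicate 3 and 6 without control replicate 2. Over all genes 1420, 1414, 1323 and 1387 rose there, in the same order, in place of 1854. The median of the hydrolases in these fits was 0.105, 0.083, 0.095 and 0.087, against 0.09 with all arrays. Whether the drop in calls was particular to them was not tested. IDS and LIPA were called lower in each of those fits. RNA of whole cultures was measured, so fewer cells with a transcript and less of it per cell cannot be told apart, nor can lower OCRL from any other effect of its siRNA.

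**Figure D1:**
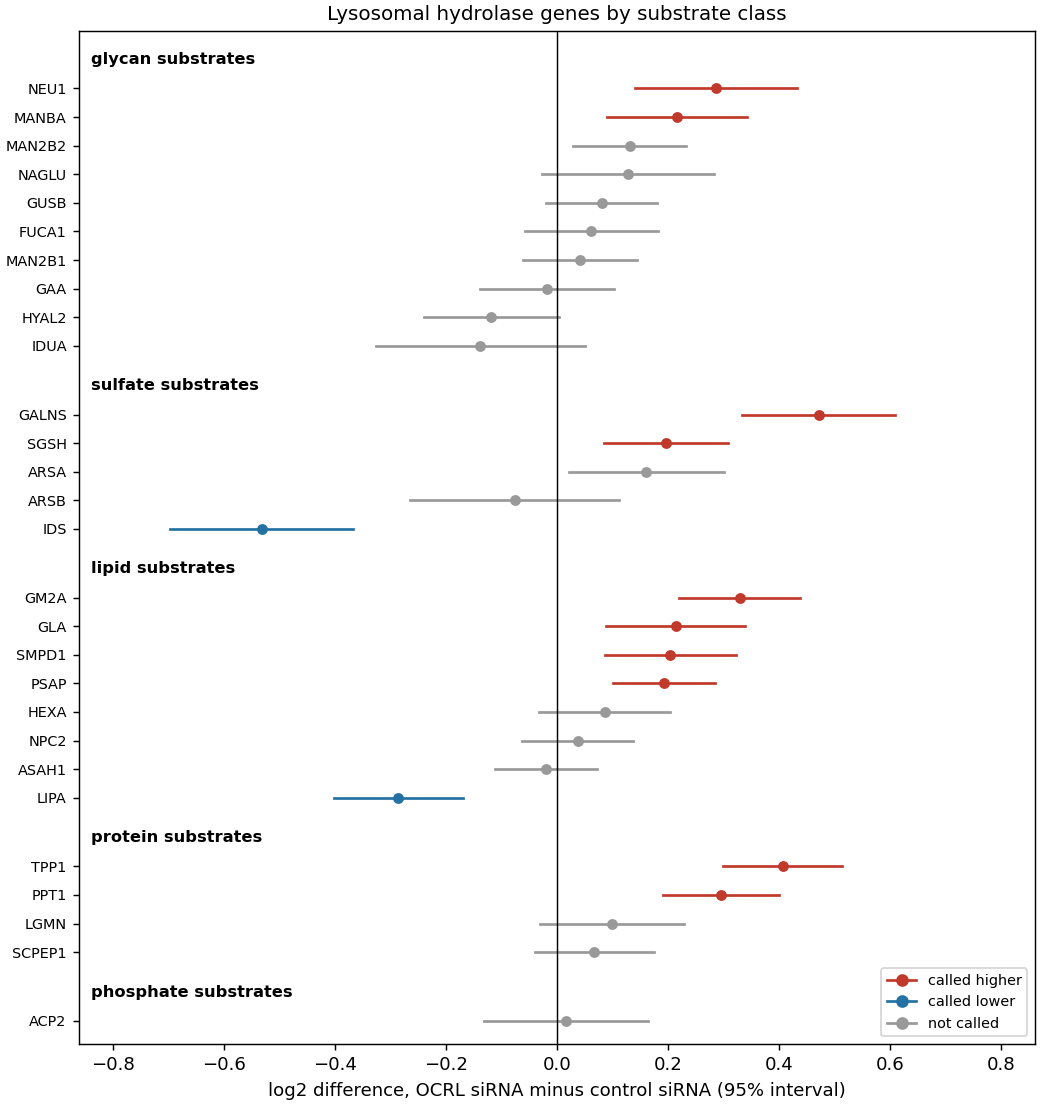
The log2 difference (x axis, OCRL siRNA minus control siRNA) of the 28 measured genes (rows) is drawn by substrate class, with points for the estimate and lines for its 95% interval from limma (3 arrays a group). The 10 genes called higher lie between 0.19 and 0.47, and the 2 called lower, IDS and LIPA, lie at -0.53 and -0.29.

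Genes of lysosomal enzymes often carry in their promoters the letters CACGTG, best known in the longer form GTCACGTGAC, the element that the transcription factor TFEB and its relatives bind. RefSeq promoters, from 250 bases before the start of a gene to 50 after it, were found for 22 of the 30 genes. Both forms read the same on the 2 strands, and the longer form, like the form TCACGTGA, contains the shorter one. CACGTG stood in 5 of the 22 genes and in 8.77% of the 27305 genes of the table, TCACGTGA in 3 genes against 1.18%, and GTCACGTGAC in 2 genes against 0.421%. The stretches that hold them are shown because they fall in genes that rose and in genes that were not called alike. Each is 5′ to 3′ on the strand of the gene (GRCh38.p14), with the matching letters in capitals.
GALNS, far site: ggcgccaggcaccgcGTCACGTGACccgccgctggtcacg
GALNS, near site: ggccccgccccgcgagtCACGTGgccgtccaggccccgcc
NEU1: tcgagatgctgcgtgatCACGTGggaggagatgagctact
GAA, far site: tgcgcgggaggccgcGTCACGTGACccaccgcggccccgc
GAA, near site: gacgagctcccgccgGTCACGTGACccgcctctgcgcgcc
SCPEP1: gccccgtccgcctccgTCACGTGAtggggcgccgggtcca
ARSB: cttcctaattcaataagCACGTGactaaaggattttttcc

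The GALNS stretches are chr16:88857099-88857138 and chr16:88856957-88856996 on the minus strand, with CACGTG beginning 174 and 32 bases before the start site. That of NEU1 is chr6:31862925-31862964, minus strand, at 126 bases. Those of the glycogen-degrading enzyme gene GAA are chr17:80101488-80101527 and chr17:80101533-80101572, plus strand, at 76 and 31 bases. SCPEP1 has its stretch at chr17:56978087-56978126, plus strand, at 27 bases, and ARSB at chr5:78986096-78986135, minus strand, at 160 bases. GALNS rose most of the list and NEU1 rose, whereas GAA, SCPEP1 and ARSB were not called. Of the 7 risers with a promoter in the table, 2 held CACGTG, of the 11 uncalled genes 3, and of the 2 fallers 0. The 5 other risers, GLA, GM2A, SMPD1, TPP1 and PPT1, had no such letters in this window.

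Most glycan enzymes take single sugars off glycoproteins, glycogen and the chains of proteoglycans, and HYAL2 cleaves hyaluronan. Of 10 measured, 2 rose, 0 fell and 8 were not called, with a median difference of 0.07. Among all genes 15.5% rose and 10.5% fell. By limma 3 glycan genes had an unadjusted p under 0.05, against 38.5% of all genes. NEU1, the sialidase that takes off terminal sialic acid, was at 9.91, 9.87 and 9.89 (log2 value) in OCRL siRNA cells and at 9.50, 9.60 and 9.72 in control cells. All OCRL siRNA arrays lay above all control arrays, and the control arrays were the more spread. The rise was 1.22-fold (log2 difference 0.29, SE 0.061, adjusted p = 0.0159). MANBA, which cleaves beta-linked mannose, was at 8.21, 8.36 and 8.27 in OCRL siRNA cells and at 8.02, 8.11 and 8.06 in control cells. The groups did not overlap, and the gene rose 1.16-fold (log2 difference 0.22, SE 0.053, adjusted p = 0.0273).

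NEU1 missed the threshold without OCRL siRNA replicate 1 (adjusted p = 0.0534) or 3 (0.0558) and without control replicate 2 (0.0525). MANBA was less firm. Its adjusted p was 0.0773 and 0.0763 without OCRL siRNA replicates 2 and 3, 0.0635, 0.0520 and 0.0802 without control replicates 1, 2 and 3, and 0.0527 and 0.0528 with quantile normalisation and with median centring.

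The 8 glycan genes not called lay from -0.14 to 0.13. MAN2B2, an alpha-mannosidase gene, had the smallest p of them, with log2 values of 8.29, 8.23 and 8.22 in OCRL siRNA cells and 8.10, 8.11 and 8.13 in control cells. Its groups did not overlap, but the difference of 0.13 (SE 0.043) missed the threshold (adjusted p = 0.0717). The other alpha-mannosidase gene, MAN2B1, was at 8.69 ± 0.03 in OCRL siRNA cells and 8.65 ± 0.03 in control cells (mean ± SD, n = 3 each). NAGLU, which removes acetylated glucosamine ends from heparan sulfate, differed by 0.13 (95% interval -0.03 to 0.28). The glucuronidase gene GUSB differed by 0.08 (-0.02 to 0.18). GUSB has near-identical pseudogenes, so its signal may be shared. The fucosidase gene FUCA1 differed by 0.06 (-0.06 to 0.18). GAA, with 2 copies of the 10-letter element, differed by -0.02 (-0.14 to 0.10).

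HYAL2, a hyaluronan-cleaving enzyme also found at the cell surface, and IDUA, which removes iduronic acid from heparan and dermatan sulfate, had the most negative differences of the class. HYAL2 was at 8.43 ± 0.03 in OCRL siRNA cells and 8.55 ± 0.07 in control cells (log2 difference -0.12, 95% interval -0.24 to 0.003, adjusted p = 0.151). IDUA was at 6.32 ± 0.12 in OCRL siRNA cells and 6.46 ± 0.10 in control cells, a difference of -0.14 (-0.33 to 0.05, adjusted p = 0.273).

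Sulfatases take sulfate groups off glycosaminoglycans and sulfated lipids. This class held both extremes of the list. Of 5 measured, 2 rose, 1 fell and 2 were not called, with a median of 0.16. Among all genes 15.5% rose and 10.5% fell. GALNS, the sulfatase of keratan sulfate and chondroitin sulfate, was at 9.06, 9.16 and 9.12 in OCRL siRNA cells and at 8.72, 8.56 and 8.64 in control cells. The lowest OCRL siRNA array lay well above the highest control array. GALNS rose 1.39-fold (log2 difference 0.47, SE 0.058, adjusted p = 0.00166) and kept its call in every setting tried apart from a 1.5-fold minimum.

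IDS, the enzyme that takes sulfate off iduronic acid and is missing in Hunter syndrome, was at 9.51, 9.43 and 9.40 in OCRL siRNA cells and at 10.10, 9.98 and 9.86 in control cells. All OCRL siRNA arrays lay below all control arrays. The level fell to 69.2% of control (log2 difference -0.53, SE 0.069, adjusted p = 0.00218). SGSH, the sulfamidase of heparan sulfate, was at 9.25, 9.25 and 9.19 in OCRL siRNA cells and at 9.03, 9.08 and 8.99 in control cells, without overlap. It rose 1.15-fold (log2 difference 0.20, SE 0.047, adjusted p = 0.0245), and missed the threshold without OCRL siRNA replicate 1 (adjusted p = 0.0756) or 2 (0.0775), without control replicate 3 (0.0863) and with median centring (0.0626).

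ARSA, the sulfatase of sulfated galactolipid in myelin and kidney, was at 6.996, 6.86 and 6.86 in OCRL siRNA cells and at 6.67, 6.76 and 6.80 in control cells. The groups did not overlap, yet the difference of 0.16 (SE 0.059) was not called (adjusted p = 0.098). ARSB, which acts on dermatan sulfate, was at 6.14 ± 0.12 in OCRL siRNA cells and 6.21 ± 0.10 in control cells (log2 difference -0.08, 95% interval -0.26 to 0.11).

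Lipid-class genes encode enzymes, cofactors and carriers for gangliosides, globosides, sphingomyelin, ceramide and sterol esters. Of 8 measured, 4 rose, 1 fell and 3 were not called, with a median of 0.14. Among all genes 15.5% rose and 10.5% fell. GM2A, the activator that lifts ganglioside out of the membrane for hexosaminidase A, was at 9.18, 9.21 and 9.13 in OCRL siRNA cells and at 8.89, 8.84 and 8.81 in control cells. Its groups stood clear of each other, and it rose 1.26-fold (log2 difference 0.33, SE 0.046, adjusted p = 0.00281). PSAP, the precursor of the saposins that activate several sphingolipid hydrolases, was at 13.03, 13.03 and 13.03 in OCRL siRNA cells and at 12.82, 12.84 and 12.85 in control cells. The spread within its groups was small beside the difference of 0.19 (SE 0.039, adjusted p = 0.0127). Without OCRL siRNA replicate 3 the adjusted p of PSAP was 0.0506.

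GLA, the alpha-galactosidase whose loss causes Fabry disease, in which kidney cells store globoside, was at 11.23, 11.21 and 11.18 in OCRL siRNA cells and at 10.91, 11.01 and 11.06 in control cells. SMPD1, acid sphingomyelinase, was at 8.07, 8.07 and 8.09 in OCRL siRNA cells and at 7.94, 7.80 and 7.89 in control cells. Neither gene had overlapping groups. GLA rose 1.16-fold (log2 difference 0.21, SE 0.052, adjusted p = 0.0273) and SMPD1 1.15-fold (0.20, SE 0.050, adjusted p = 0.0267). Both calls were weak. Leaving out OCRL siRNA replicate 1, 2 or 3 gave GLA adjusted p of 0.0825, 0.0759 and 0.0649, and leaving out control replicate 2 gave 0.0661. SMPD1 had 0.0683, 0.0705 and 0.0891 without OCRL siRNA replicates 1, 2 and 3, and 0.0802 and 0.0737 without control replicates 2 and 3. With median centring the values were 0.0612 for GLA and 0.0663 for SMPD1. With the replicate number as a block they were 0.0647 for GLA and 0.0515 for SMPD1.

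LIPA, the acid lipase that frees cholesterol and fatty acid from lipoprotein lipids, fell. Its log2 values were 10.90, 10.80 and 10.79 in OCRL siRNA cells and 11.10, 11.10 and 11.14 in control cells. The highest OCRL siRNA array, replicate 1, lay below the lowest control array. The level was 82.0% of control (log2 difference -0.29, SE 0.049, adjusted p = 0.00653), and the call held in every setting tried apart from a 1.5-fold minimum.

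HEXA, the alpha subunit of hexosaminidase A, which GM2A serves, was at 10.33, 10.38 and 10.32 in OCRL siRNA cells and at 10.18, 10.28 and 10.31 in control cells. The groups were close without overlapping, and the difference of 0.09 (SE 0.050) was not called (adjusted p = 0.283). NPC2, which carries cholesterol freed by LIPA, was at 13.24 ± 0.02 in OCRL siRNA cells and 13.20 ± 0.03 in control cells (log2 difference 0.04, 95% interval -0.06 to 0.14). ASAH1, acid ceramidase, differed by -0.02 (-0.11 to 0.07) on its brightest probe set.

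Protein-class genes encode peptidases and the thioesterase that strips fatty acids from proteins. Of 4 measured, 2 rose, 0 fell and 2 were not called, and the median was 0.20. Among all genes 15.5% rose and 10.5% fell. TPP1, which removes tripeptides from the ends of proteins and is lost in a childhood form of neuronal ceroid lipofuscinosis, was at 9.03, 9.005 and 9.08 in OCRL siRNA cells and at 8.68, 8.61 and 8.61 in control cells. PPT1, the palmitoyl thioesterase lost in another form of that disease, was at 12.85, 12.86 and 12.86 in OCRL siRNA cells and at 12.59, 12.51 and 12.59 in control cells. In both genes the OCRL siRNA arrays lay above all control arrays. TPP1 rose 1.33-fold (log2 difference 0.41, SE 0.045, adjusted p = 0.00107), the smallest p of the list. PPT1 rose 1.23-fold (0.30, SE 0.044, adjusted p = 0.00365) and kept its call in every setting tried apart from a 1.5-fold minimum.

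LGMN, the endopeptidase that cuts after asparagine, was at 10.96, 11.01 and 11.004 in OCRL siRNA cells and at 10.99, 10.84 and 10.85 in control cells. Control replicate 1 lay among the OCRL siRNA arrays, and the difference of 0.10 (SE 0.055) was not called (adjusted p = 0.253). SCPEP1, of the serine carboxypeptidase family, was at 9.04 ± 0.05 in OCRL siRNA cells and 8.97 ± 0.02 in control cells (log2 difference 0.07, 95% interval -0.04 to 0.18). ACP2, the acid phosphatase of lysosomes, stood outside the other classes. Its log2 values were 8.43, 8.64 and 8.49 in OCRL siRNA cells and 8.53, 8.48 and 8.504 in control cells, which overlapped, and its difference was 0.02 (SE 0.062, adjusted p = 0.891).

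**Figure D2:**
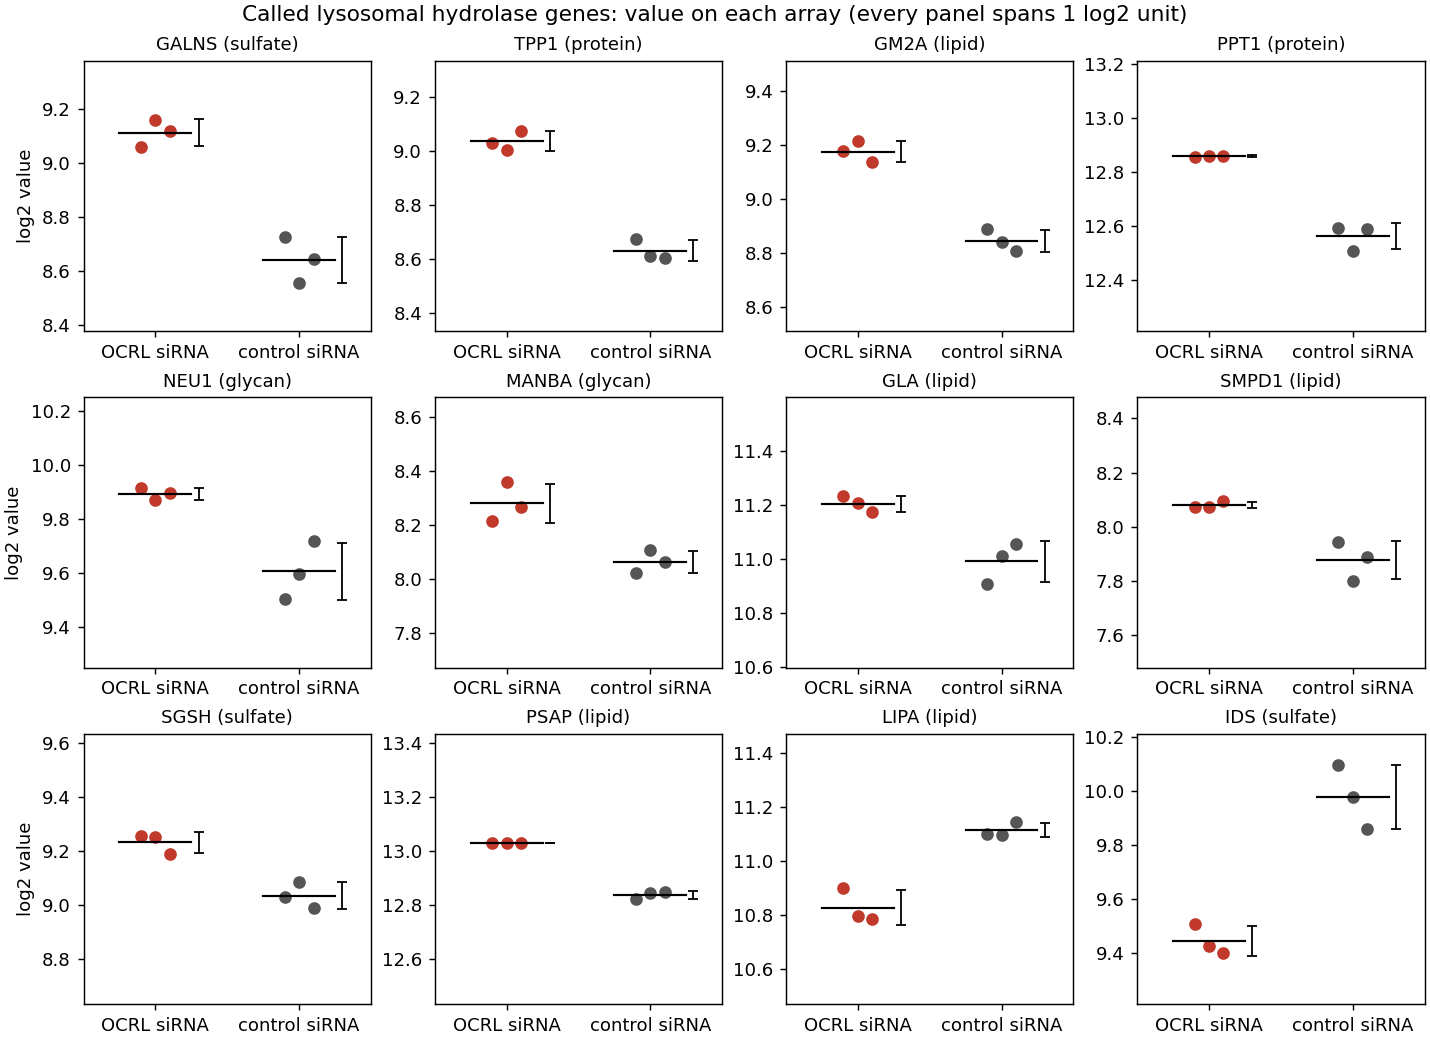
Log2 values (y axes, each spanning 1 unit) of the 12 called genes on every array are drawn in 1 panel a gene, with OCRL siRNA left and control siRNA right, a line for the mean of 3 arrays and a bar for ± 1 SD. Points of the groups do not overlap in any panel, and the gap is widest for IDS, GALNS and TPP1.

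The counts by class rest on few genes. Without OCRL siRNA replicate 3 or control replicate 2 there were 0 glycan risers in place of 2, and 1 without OCRL siRNA replicate 1 or 2 or control replicate 1 or 3. Sulfate risers were 1 without OCRL siRNA replicate 1 or 2 or control replicate 3. Lipid risers were 2 without OCRL siRNA replicate 1 or 2 or control replicate 2, and 1 without OCRL siRNA replicate 3. Both protein risers were called in each fit that left out an array.

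Several genes had further probe sets, which read other stretches of the transcripts and did not always move alike. Another 28 probe sets belonged to 10 of the genes. Of these 4 were called higher, 1 lower and 23 were not called, where 23.1% of all probe sets tested were called in either direction. Among the 6 called genes with more than 1 probe set, another one was called the same way for 3, namely TPP1 (0.29, SE 0.065, adjusted p = 0.0184), GM2A (0.29, SE 0.060, adjusted p = 0.0143) and IDS. For PSAP and SGSH the second probe set differed by 0.19 and 0.14 and was not called (adjusted p = 0.0888 and 0.0692). SMPD1 had 3 others, from -0.07 to 0.01, and none was called.

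IDS was the least uniform gene. Its chosen probe set, 212221_x_at, belongs to a kind that can also bind other transcripts, and a near-identical pseudogene of IDS exists. The probe set 212223_at fell too, with 7.95, 7.96 and 8.12 in OCRL siRNA cells and 8.49, 8.35 and 8.35 in control cells (log2 difference -0.39, SE 0.067, adjusted p = 0.00722). The probe sets 206342_x_at and 202439_s_at differed by 0.07 (95% interval -0.11 to 0.25) and -0.02 (-0.20 to 0.16). The dim probe set 211782_at, below the lower quartile of every array, was called higher (0.28, SE 0.079, adjusted p = 0.0452). The fall of IDS was thus seen on 2 of 9 probe sets, and with the mean of all of them the difference was -0.07 (adjusted p = 0.305).

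ASAH1 differed between probe sets in the other way. The chosen 213702_x_at was at 11.51, 11.51 and 11.52 in OCRL siRNA cells and at 11.55, 11.52 and 11.52 in control cells. The probe set 213902_at was at 9.70, 9.69 and 9.67 in OCRL siRNA cells and at 9.16, 9.15 and 9.20 in control cells, a rise of 0.52 (SE 0.040, adjusted p = 2.67e-04). Another, 210980_s_at, differed by -0.09 (SE 0.054) and was not called. HEXA also had probe sets of opposite sign, with -0.23 (SE 0.077, adjusted p = 0.0774) on the dimmer 215155_at. What sets these probe sets apart was not tested.

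**Figure D3:**
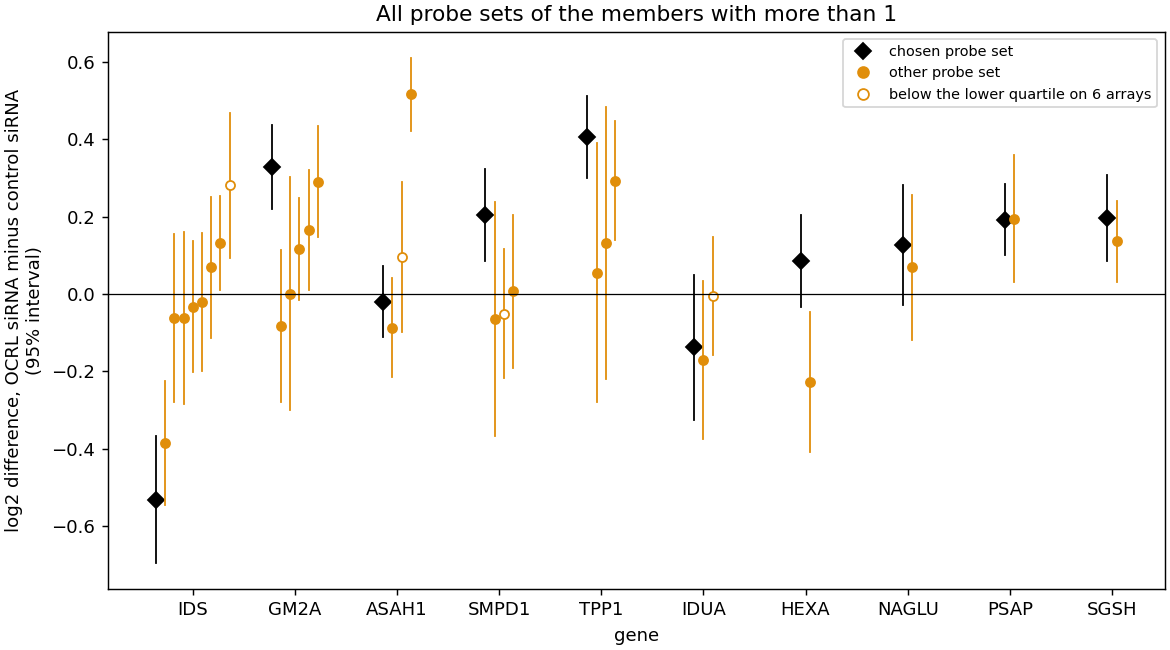
The log2 difference (y axis, OCRL siRNA minus control siRNA, with 95% intervals) of every probe set is drawn for the 10 genes (x axis) that have more than 1. Black diamonds are the chosen probe sets, orange circles the others and open circles those below the lower quartile on all 6 arrays. IDS spans from -0.53 to 0.28, and 1 circle of ASAH1 stands at 0.52 while its diamond lies at -0.02.

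Hydrolases beyond the 30 were read from a second list without cathepsins, of which 10 of 22 were measured. Of these, 5 rose, 0 fell and 5 were not called, against 15.5% higher and 10.5% lower over all genes. By limma 8 had an unadjusted p under 0.05, against 38.5% of all genes. The median difference was 0.23, or 0.19 with median centring. The ribonuclease gene RNASET2 rose 1.48-fold, with 10.56, 10.63 and 10.70 in OCRL siRNA cells and 10.08, 10.05 and 10.08 in control cells (log2 difference 0.56, SE 0.049, adjusted p = 4.31e-04). NAAA, which cleaves fatty acid ethanolamides, rose by 0.49 (SE 0.048) and the heparanase gene HPSE by 0.46 (SE 0.064). With the mean of its probe sets NAAA differed by 0.11 and was not called (adjusted p = 0.147). The lysosomal phospholipase gene PLA2G15 rose by 0.29 (SE 0.048) and DNASE2, an acid deoxyribonuclease, by 0.25 (SE 0.048). PRCP had the only negative difference, -0.06 (SE 0.041), and was not called.

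Genes that tag, carry or steady the hydrolases or work beside them were read from a further list, of which 11 of 15 were measured. They are called delivery genes below, although CTSA is itself a lysosomal enzyme and HGSNAT acts on heparan sulfate. Of the 11 measured, 5 rose, 1 fell and 5 were not called, with a median difference of 0.09, or 0.05 with median centring. Among all genes 15.5% rose and 10.5% fell. CTSA is cathepsin A, the carboxypeptidase that holds NEU1 in its active complex. It was at 11.07, 11.13 and 11.06 in OCRL siRNA cells and at 10.38, 10.45 and 10.46 in control cells. The groups lay far apart, and CTSA rose 1.58-fold (log2 difference 0.66, SE 0.046, adjusted p = 1.76e-04). M6PR, the smaller receptor of mannose phosphate tags, was at 11.19, 11.17 and 11.14 in OCRL siRNA cells and at 10.86, 10.86 and 10.87 in control cells, without overlap. It rose by 0.31 (SE 0.040, adjusted p = 0.00219), while the larger receptor IGF2R differed by 0.09 (SE 0.043, adjusted p = 0.176).

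The adaptor gene GGA2, which loads these receptors into vesicles, rose by 0.39 (SE 0.064), whereas GGA1 (0.03) and GGA3 (-0.04) were not called. SCARB2, the carrier of glucocerebrosidase, rose by 0.30 (SE 0.051). NAGPA, which uncovers the mannose phosphate tag, was called higher by 0.20 (SE 0.052, adjusted p = 0.0322). GNPTAB, the enzyme that makes the tag, differed by -0.12 (SE 0.060) and was not called. NAGPA missed the threshold without OCRL siRNA replicates 1, 2 or 3 (adjusted p = 0.0769, 0.0739 and 0.107), without control replicates 1 or 3 (0.0652 and 0.100), and with quantile normalisation (0.0713) or median centring (0.0879).

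HGSNAT, the membrane enzyme that acetylates heparan sulfate ends so that NAGLU can act, fell. It was at 8.12, 8.11 and 8.09 in OCRL siRNA cells and at 8.38, 8.33 and 8.26 in control cells, without overlap (log2 difference -0.21, SE 0.047, adjusted p = 0.0185). The call was lost without OCRL siRNA replicate 2 (adjusted p = 0.0557) or 3 (0.0707) and without control replicate 2 (0.0613).

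**Figure D4:**
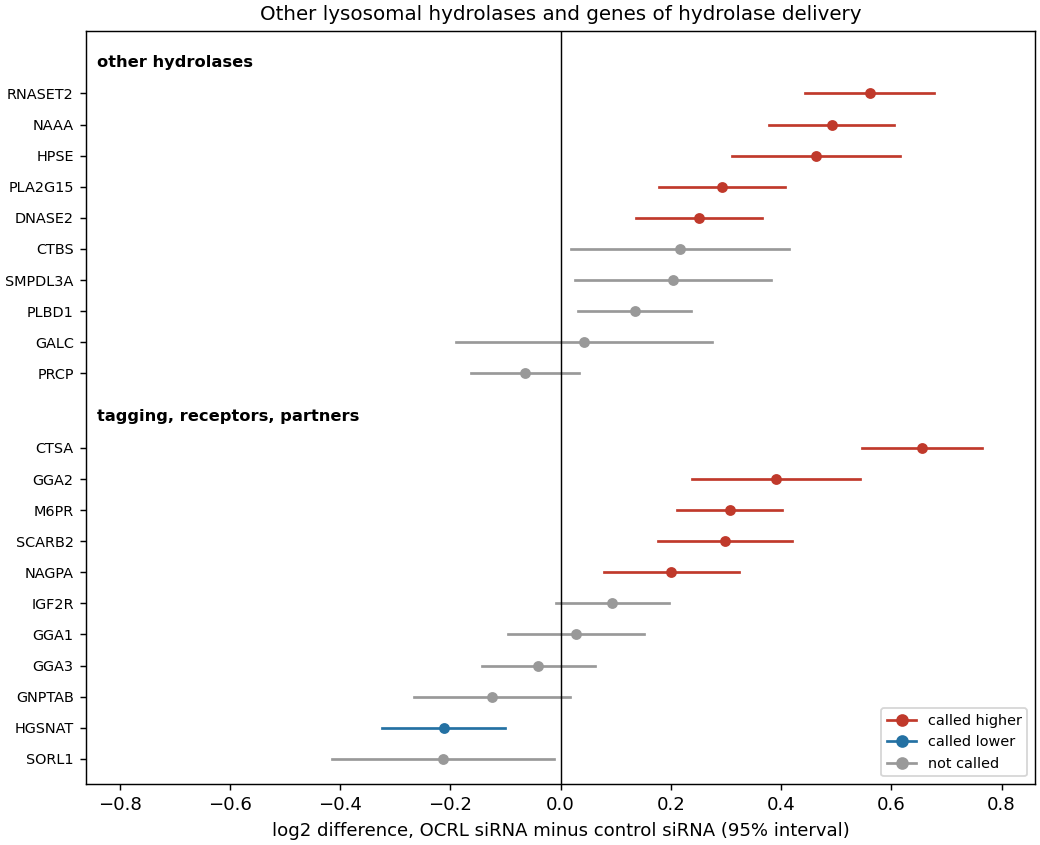
The log2 difference (x axis, OCRL siRNA minus control siRNA) with its 95% interval is drawn for the 10 other lysosomal hydrolase genes and the 11 genes of tagging, receptors and partners (rows). RNASET2 leads the first group at 0.56 and CTSA the second at 0.66, and HGSNAT is the 1 gene called lower, at -0.21.

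Kidney identity was checked on fixed markers. None of 9 measured proximal tubule markers was called by limma, 1 had an unadjusted p under 0.05, and LRP2 and AQP1 lay below the lower quartile on all 6 arrays, so the differentiated tubule markers were dim or uncalled in both groups. Of 7 kidney epithelial markers, 4 (PAX8, KRT8, KRT19 and CDH6) fell and 0 rose, against 10.5% and 15.5% of all genes. Their summed level was 14.40 to 14.43 (log2) in OCRL siRNA cells and 14.65 to 14.71 in control cells, and the part of this fall in the hydrolase changes was not tested. Leukocyte markers were called in 0 of 9 by limma, with 0 at an unadjusted p under 0.05. Their summed level was 8.65 to 8.75 in OCRL siRNA cells and 8.58 to 8.76 in control cells, and PTPRC, LYZ, CD163 and TYROBP lay below the lower quartile on all 6 arrays. Fibroblast markers were called in 1 of 7 (LUM, lower), with summed levels of 9.68 to 9.72 in OCRL siRNA cells and 9.95 to 10.16 in control cells. Endothelial markers were called in 0 of 5 by limma, with 2 at an unadjusted p under 0.05, and their summed levels were 7.27 to 7.48 in OCRL siRNA cells and 7.34 to 7.49 in control cells.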

How the data were processed

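Biotin-labelled RNA of HK2 cells was hybridised to single-colour Affymetrix arrays, 1 per sample, per the labels' protocols. The deposited values are log2 intensities that the authors normalised. The submitters' processing notes list affy and RMA without versions. RMA makes the distributions of arrays alike, which hides shifts common to most genes, and differences of dim probe sets are compressed. Depth has no meaning for arrays; their number limits the precision.

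Of 22277 probe sets, 62 AFFX controls were left out and 22215 tested two-sided with limma 3.58.1 under R 4.3.3. The model of lmFit and eBayes held the group alone, and p was adjusted by Benjamini-Hochberg over all of them (threshold 0.05). Symbols came from GEO's platform annotation: 19064 probe sets had 1, 1043 several and 2108 none, and those were left unnamed. Of the single symbols, 19052 matched RefSeq (GRCh38.p14) by Entrez identifier. Promoters were RefSeq's. The fit was checked on simulated data. SE is the moderated standard error, and 95% intervals come from the fit.

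Members, classes and lists were chosen with earlier results of these data known. All measured members are named, with values on every array for the called ones and for the uncalled one with the smallest p in each class, and up to 6 called genes of the other lists. HEXA and GLA were counted as lipid and PPT1 as protein enzymes. Sequence features of the proteins were not analysed here. Other settings were a block for the replicate number, leaving out each array in turn, quantile normalisation and median centring, trend and robust settings, array weights, dim or _s_at and _x_at probe sets left out, a 1.5-fold minimum, other choices of probe set, and classes by the bond cleaved. Plots came from matplotlib 3.10.9 (Python 3.11.15).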

Additional observations from a re-analysis of the deposited data

How the results depend on the processing

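The fall of OCRL and the 2 falls among the hydrolases were called in most settings, and the number of rises varied more. With a 1.5-fold minimum, 0 members were called higher and 0 lower, which gave 0 in every class. It gave 0 other hydrolases, 1 delivery gene higher and 0 lower, and 300 higher and 202 lower of all 11963 genes. With median centring 6 members rose (glycan 1, sulfate 1, lipid 2), and with quantile normalisation 1 glycan gene. With the mean of the probe sets of a gene 1 member fell, and 0 of the sulfatases, where 1385 of all 11963 genes fell. Without _s_at and _x_at probe sets, which left fewer genes measured, 1 of 4 protein genes, 2 of 7 other hydrolases and 3 of 6 delivery genes rose and 0 delivery genes fell. HGSNAT, M6PR, NAGPA, NAAA, HPSE and DNASE2 were among those no longer measured. Of the 8369 genes left, 1039 rose and 814 fell. With dim probe sets left out, 8 of 9 other hydrolases were higher, where 2148 of all 6887 genes left were higher. Array weights gave 2 of 11 delivery genes lower, where 1580 of all 11963 genes were lower. Classes by the bond cleaved gave 1 of 3 protein genes higher. With 1 array left out, risers ranged from 5 to 9 (glycan 0 to 1, sulfate 1 to 2, lipid 1 to 4, other hydrolases 5 to 6, delivery genes 4 to 5), and delivery genes called lower from 0 to 1. The fit with the replicate number as a block called 8 members higher and 2 lower, with 2 lipid genes higher. Over all 11963 genes it called 1609 higher and 1133 lower. GLA, SMPD1 and NAGPA were not called there (adjusted p = 0.0647, 0.0515 and 0.0700). Same-numbered arrays deviated together with r = 0.14, 0.12 and -0.01 across probe sets, and 4 of 6 arrays correlated best with their own number. These values do not settle whether the numbers mark pairs. The labels do not say that a number marks 1 experiment, so the block was kept as an alternative only. Signs turned for GAA (0.0229 without control replicate 2; -0.0524 to 0.0229 with 1 array left out), MAN2B1 (-0.0045) and NPC2 (-0.0088) with median centring, ACP2 (-0.0444 without OCRL siRNA replicate 2, -0.0444 to 0.0628 with 1 array left out, -0.0145 with quantile normalisation, -0.0298 with median centring), HEXA (-0.23 without _s_at and _x_at probe sets, -0.0712 with the mean and -0.23 with the most variable probe set), SMPD1 (-0.0657 in the first and last of these) and ASAH1 (0.52, 0.13 and 0.52 in the same order). The cause was not tested. Without an _s_at or _x_at probe set, TPP1 rested on a dimmer one (0.05, adjusted p = 0.833). With the mean of its probe sets GM2A missed the threshold (adjusted p = 0.0544), as PSAP did with the most variable one (0.0888). Of the 12 called members, GALNS, PPT1 and LIPA were called in all settings but the 1.5-fold minimum, and 10 kept their direction in all 16. PSAP kept it in the 15 that measured it, and SMPD1 is given above. MAN2B2 and ASAH1, not called in the report, were called higher in at least 1.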

Other observations

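Heparan sulfate is broken down by enzymes that act in turn on the end of the chain, after heparanase has cut it into pieces. All 7 genes put together here, after their values were seen, were measured, and 2 rose, 2 fell and 3 were not called. Among all genes 15.5% rose and 10.5% fell. HPSE (log2 difference 0.46, SE 0.064) and the sulfamidase gene SGSH (0.20, SE 0.047) were higher in OCRL siRNA cells. IDS (-0.53, SE 0.069) and HGSNAT (-0.21, SE 0.047) were lower. IDS was lower on 2 of its 9 probe sets, with -0.07 (adjusted p = 0.305) for the mean of them, and HGSNAT missed the threshold without OCRL siRNA replicate 2 or 3 or control replicate 2. IDUA (-0.14, SE 0.079), NAGLU (0.13, SE 0.065) and GUSB (0.08, SE 0.042) were not called.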
